A study of Mus musculus with 11 samples.

Results

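The nuclear genes that encode subunits of respiratory chain complexes I to IV were followed in embryonic day 17 mouse kidneys. Genes were taken by symbol: names beginning Ndufa, Ndufb, Ndufc, Ndufs or Ndufv (without the Ndufaf assembly factors), the 4 Sdh genes, names beginning Uqcr, and names beginning Cox4i, Cox5, Cox6, Cox7 or Cox8. This gave 65 of the 18193 genes on the array, of which 36 belong by symbol to complex I, 4 to complex II, 8 to complex III and 17 to complex IV. They were read by 138 probe sets, and 39 of the 65 genes had more than 1. Each gene is described by its probe set with the highest mean signal. Another 10 probe sets that carry such a symbol together with other symbols were not used. Ndufa4 is counted here with complex I because of its name, although its protein is now placed in complex IV.

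Each sample was 1 Affymetrix expression array of total kidney RNA. By source label 4 came from wild-type and 7 from Robo2 homozygous kidneys, all taken at embryonic day 17. Robo2 is a Slit receptor gene. Titles fell into 3 series. R2E17 held replicate 1 of each genotype, E17R2 held replicates 2 to 4 of each, and R2NB held 3 further arrays labelled homozygous, called NB-titled replicates 3 to 5 here. No source used here gives the meaning of NB, the Robo2 allele, the strain or whether kidneys were pooled. Free-text labels of the same samples spoke of human brain, which contradicts the organism, source and tissue labels. The latter were followed.

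Complex I takes electrons from NADH, complex II takes them from succinate, complex III passes them from ubiquinol to cytochrome c, and complex IV hands them to oxygen. Complexes I, III and IV pump protons across the inner mitochondrial membrane, and the gradient drives ATP synthesis. Complex II is encoded entirely in the nucleus, whereas the other complexes also hold subunits of the mitochondrial genome, none of which was among these genes. The kidney, above all the proximal tubule, is rich in mitochondria and reabsorbs solutes at the expense of ATP from this chain. Several complex IV subunits come in pairs of a general and a tissue-restricted isoform, with restricted forms known from striated muscle, lung or testis.

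Values are log2 of the deposited RMA intensity, so a difference of 1 is a doubling. The arrays fell into 2 sets by scale, and no source used here says how they were normalized together. The R2E17 and NB-titled arrays (set of 5) had a median gene intensity of 169 to 184 and the E17R2 arrays (set of 6) of 75.5 to 81.3. Log2 intensities from the 2 sets therefore cannot be set side by side, and comparisons across them use values centred on each array's median gene. In the set of 5, 24 of the 65 genes had an identical value on at least 2 arrays (44.0% of all genes), against 1 of 65 in the set of 6 (4.05%), and the part of these ties in the spread was not tested. Wild-type replicate 1 had the highest 3' minus 5' difference of the control probe sets, 0.70 for Gapdh and 1.12 for Actb, against -0.013 to 0.22 and 0.34 to 0.75 on the other 10 arrays. The 9 measured genes of a kidney identity list had summed intensities of 3583 to 6049 (set of 6) or 13826 to 15226 (set of 5). The 10 measured brain genes summed to 295 to 438 or 534 to 1056, and the neuronal gene Snap25 had a log2 intensity of 7.24 on NB-titled replicate 5, 6.03 and 5.58 on wild-type replicates 2 and 3, and 6.39 on homozygous replicate 4. Robo2 itself, from 1 dim probe set, read 3.13, 3.68 and 3.16 in the E17R2 wild-type and 2.03, 2.37 and 2.33 in the homozygous arrays, without overlap, and 3.96 and 3.37 in the R2E17 wild-type and homozygous arrays. The NB-titled arrays, labelled homozygous, read 3.28, 3.86 and 3.99, so that replicate 3 lay near the R2E17 homozygous array while replicates 4 and 5 lay near the wild-type array. Whether this probe set lies in the altered part of the gene is not known here, and it does not bear out the homozygous label of these arrays.

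Complexes I to IV were read at bright probe sets in both genotypes. In the E17R2 wild-type kidneys the median log2 intensity over the subunit genes was 10.71 for complex I, 10.50 for complex II, 10.82 for complex III and 10.80 for complex IV. The same medians in the homozygous kidneys were 10.65, 10.35, 10.70 and 10.76. Signals of different probe sets do not rank transcripts, so no order between complexes is drawn. Of the 65 genes, 52 lay among the brightest 10% of all genes and 9 below the middle of the array's range. The dim ones were the isoforms Cox4i2, Cox6a2, Cox7a1, Cox7b2, Cox8b and Cox8c, and also Ndufb1, Ndufb4 and Cox7c, subunits of general expression whose probe sets read little signal. The names of 33 of the 65 probe sets end in a suffix for designs that may also bind related transcripts.

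Between arrays of the same group these genes varied little. On the log2 scale with arrays centred on their median gene, the SD between arrays of 1 group and title series was 0.073 for the median member. It was 0.15 for the median of all genes, most of them dimmer, and 0.065, 0.063 and 0.041 for the bright genes of the ATP synthase, the citric acid cycle and the cytosolic ribosome. The lowest member on this scale was Ndufb11, a small membrane-arm subunit of complex I (0.031). The highest belonged to Cox6a2 (0.91), Cox8b (0.87) and Ndufa4l2 (0.77), which are isoform genes described below by array.

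The genotype comparison addressed subunit transcript levels by Robo2 genotype. None of the 65 genes passed: 0 had an adjusted p under 0.05 in limma, with 0% of all 18193 genes called, and 0 had an unadjusted p under 0.05, against 4.81% of all genes. With limma's trended and robust variance the count was also 0 of 65. Robo2 itself, from its dim probe set, did not pass in the main fit either. It differed by -0.96 ± 0.19 (SE, limma unadjusted p = 5.61e-04, adjusted p = 0.879), which limits what a count of 0 can show. The fitted log2 difference, homozygous minus wild-type over both title series, had a median of 0.035 over the members and 0.009 over all genes. It lay within 0.1 of 0 for 51 of 65 genes and within 0.2 for 60. At the brightest probe set, the 95% interval of the difference stayed inside ± 0.5 for 60 of 65 genes, and for 14373 of all 18193 genes. Among the members it did so for all 57 genes outside the 8 restricted isoforms (Cox4i2, Cox6a2, Cox6b2, Cox7a1, Cox7b2, Cox8b, Cox8c and Ndufa4l2). Other probe sets of a gene, and the difference in a single title series, are not bounded by this. For Uqcr10, dimmer probe sets gave -0.71 and -1.40 in the E17R2 arrays, where the brightest gave -0.083. Kidney RNA holds many cell types, so fewer cells of a type and less RNA per cell cannot be told apart in any of these values.

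By complex, the fitted median difference was 0.038 for complex I, 0.030 for complex II, 0.032 for complex III and 0.073 for complex IV. The smallest p on the higher side belonged to Cox8c, the testis form of the smallest complex IV subunit. It read 6.03, 5.86 and 6.25 in the E17R2 wild-type arrays, 6.40, 6.23 and 6.42 in the homozygous arrays, and 6.81 and 6.77 in the R2E17 wild-type and homozygous arrays. The homozygous E17R2 arrays were higher on average but homozygous replicate 3 lay just below wild-type replicate 4, and the R2E17 pair hardly differed. Fitted over both series it was 0.22 ± 0.10 (SE) higher (limma unadjusted p = 0.0584, adjusted p = 0.943). Ndufb6, an accessory subunit in the membrane arm of complex I, read 10.68, 10.83 and 10.65 in wild-type and 10.76, 10.80 and 10.95 in homozygous E17R2 kidneys, and 11.37 and 11.68 in the R2E17 pair. Its difference was 0.17 ± 0.078 (SE, limma adjusted p = 0.943). Cox4i2, the lung form of subunit 4 known to respond to oxygen, read 4.53, 4.58 and 4.795 and 4.76, 4.64 and 4.97 in the E17R2 wild-type and homozygous arrays, and 5.16 and 5.38 in the R2E17 pair. Both groups of 3 overlapped, and the difference was 0.17 ± 0.090 (SE).

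On the lower side the smallest p belonged to Ndufs7, the core subunit that carries the last iron-sulfur cluster before ubiquinone. It read 10.35, 10.43 and 10.36 in the E17R2 wild-type arrays and 10.21, 10.23 and 10.21 in the homozygous arrays, which did not overlap. The R2E17 wild-type and homozygous arrays read 11.64 and 11.66, and the fitted difference was -0.12 ± 0.067 (SE, limma adjusted p = 0.943, 95% interval -0.26 to 0.034). A second probe set of Ndufs7 gave -0.063 in the E17R2 arrays where the first gave -0.16. Ndufs5, an accessory subunit, read 9.12, 9.09 and 8.87 in wild-type and 8.87, 8.91 and 9.01 in homozygous E17R2 arrays, which overlapped, and 9.84 and 9.76 in the R2E17 pair. Cox5a, a matrix-side subunit of complex IV, read 12.04, 12.06 and 12.19 in wild-type and 11.90, 12.02 and 11.90 in homozygous E17R2 kidneys. Here the groups did not overlap, but the R2E17 pair went the other way (13.07 and 13.22), and the fitted difference was -0.080 ± 0.077 (SE).

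The 2 title series differed in direction for most members. As deposited, 51 of 65 genes were lower in the homozygous mean of the E17R2 arrays (median -0.049), where 52.9% of all genes were lower. In the R2E17 pair, 57 of 65 were higher in the homozygous array (median 0.23), where 50.8% of all genes were higher, and 47 genes had opposite signs in the 2 series. The majority kept its direction under 2 other scalings, but its size depended on them. With each array centred on its median gene, 38 of 65 were lower in the E17R2 arrays (median -0.013, with 42.3% of all genes lower) and 46 of 65 higher in the R2E17 pair (median 0.11, with 65.5% of all genes lower). Without homozygous replicate 2 the centred E17R2 count turned to 30 lower and 35 higher. With each array centred on the cytosolic ribosome genes 51 were lower in the E17R2 arrays (52.8% of all genes) and 62 higher in the pair (33.1% of all genes lower). The R2E17 pair has 1 array per genotype, and its wild-type array is the one with the high 3' to 5' values, whose part in the difference was not tested. Without either R2E17 array the fitted member median was -0.049 in place of 0.035.

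The difference between the series was itself tested as an interaction in limma: 0 of 65 members passed (0.0165% of all genes called), while 21 of 65 had an unadjusted p under 0.05 (11.1% of all genes). As deposited, the genotype difference in the R2E17 pair minus that in the E17R2 arrays was above 0 for 62 members (median 0.29). It was above 0 for 53.8% of all genes (median 0.028). The interaction, its p-values included, is given at this scaling only. With each array centred on its median gene, the member medians of the series were 0.11 (pair) and -0.013 (E17R2), against 0.23 and -0.049 as deposited. With 1 array per genotype in that pair, its arrays are assumed to vary like those of the other groups, and the standard errors rest on the latter. Sdhd, a membrane anchor of complex II, had the smallest p, with 0.64 ± 0.15 (SE) and a limma adjusted p of 0.266. Cox7a1 followed with 1.22 ± 0.28 (SE), and Uqcrfs1, the Rieske iron-sulfur protein of complex III, with 0.64 ± 0.15 (SE), both at an adjusted p of 0.266 in limma.

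**Figure D1:**
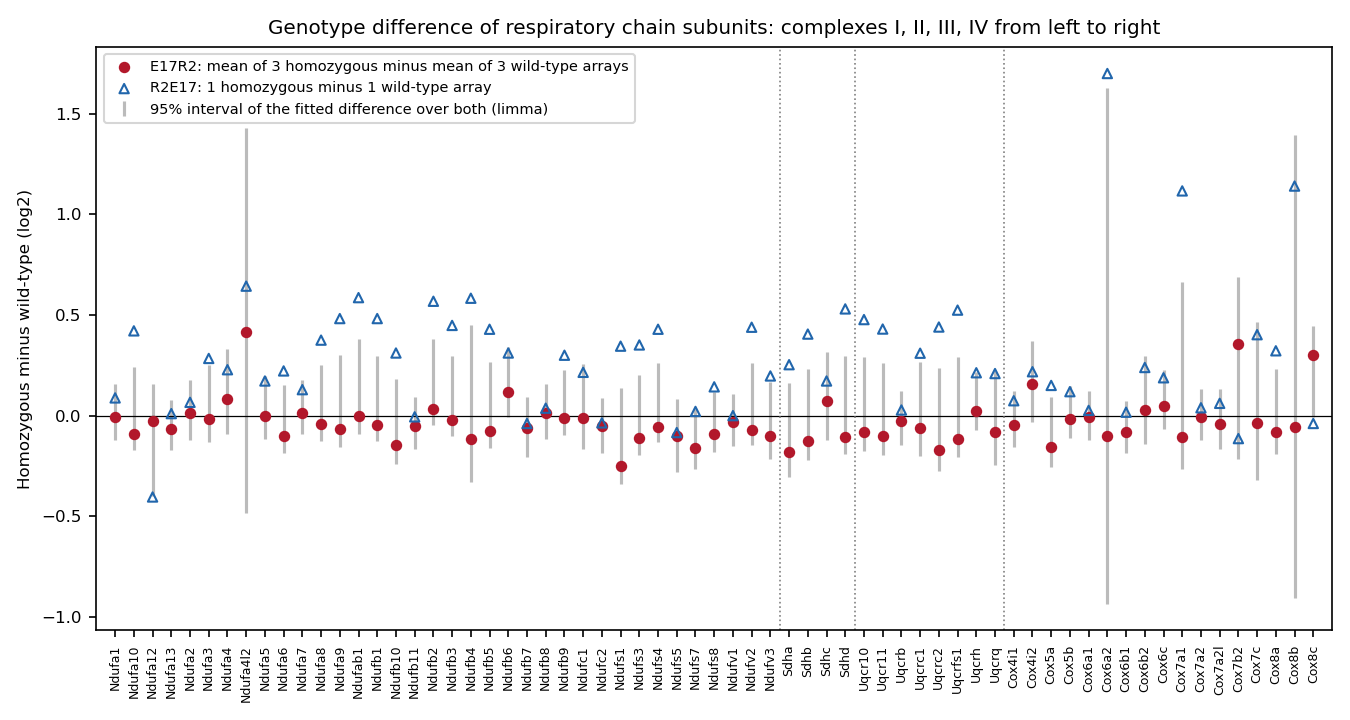
Log2 difference between homozygous and wild-type arrays (vertical axis) for each of the 65 subunit genes, as the mean of 3 minus 3 E17R2 arrays (red dots) and as 1 minus 1 R2E17 array (blue triangles), with the 95% interval of the limma fit over both (grey lines). Most dots lie a little below 0 (median -0.049) and most triangles above it (median 0.23), and the widest intervals belong to Cox6a2, Cox8b and Ndufa4l2.

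Within the E17R2 arrays, 8 of 65 members had 3 homozygous values that did not overlap the 3 wild-type values, where 12.3% of all genes did not overlap. All 8 were lower in the homozygous kidneys (7.24% of all genes) and 0 higher (5.05%): Ndufa13, Ndufb10, Ndufs1, Ndufs7, Sdha, Sdhd, Cox5a and Cox6b1. Ndufs1, the largest core subunit and the carrier of several iron-sulfur clusters, had the largest difference among them. It read 9.78, 9.78 and 9.97 in wild-type and 9.59, 9.64 and 9.55 in homozygous arrays, which gives means of 9.84 ± 0.11 (SD, n = 3) and 9.59 ± 0.044 (SD, n = 3). In the R2E17 pair the homozygous array was the higher (11.20 and 11.54), and over both series the difference was -0.10 ± 0.11 (SE), with a limma adjusted p of 0.945.

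Complex II has only 4 subunits, and all were read. Sdha, the flavoprotein that oxidises succinate, read 10.45, 10.48 and 10.62 in the E17R2 wild-type and 10.44, 10.42 and 10.15 in the homozygous arrays, where homozygous replicate 4 was the lowest. In the R2E17 wild-type and homozygous arrays it read 11.82 and 12.07, and on the NB-titled arrays 12.07, 11.90 and 11.92. Sdhb, the iron-sulfur subunit, read 11.07, 11.19 and 11.29 in wild-type, 11.07, 11.13 and 10.98 in homozygous E17R2 arrays, 12.16 and 12.56 in the R2E17 pair and 12.49, 12.48 and 12.47 on the NB-titled arrays. Its E17R2 groups overlapped. Sdhc, a membrane anchor, read 9.02, 9.08 and 8.64 in wild-type and 8.99, 8.98 and 8.98 in homozygous E17R2 arrays, 10.74 and 10.91 in the R2E17 pair and 10.70, 10.53 and 10.62 on the NB-titled arrays. Wild-type replicate 4 was the low one and the others were close to each other. Sdhd, the other anchor, read 10.43, 10.56 and 10.46 in wild-type and 10.36, 10.41 and 10.36 in homozygous E17R2 arrays, without overlap, and 10.998 and 11.53 in the R2E17 pair, again in the other direction, with 11.45, 11.40 and 11.32 on the NB-titled arrays. The fitted genotype differences of the 4 genes were -0.073, 0.007, 0.097 and 0.052, in the order Sdha to Sdhd, and none passed in limma.

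Genes around the chain were compared in the same way. In the E17R2 arrays the ATP synthase (complex V) had a median difference of -0.063 over 16 genes, 16 of 16 citric acid cycle genes were lower in the homozygous mean (median -0.11), and 16 of 16 fatty acid oxidation genes were lower (median -0.18). The R2E17 pair went the other way, with 14 of 16 citric acid cycle genes (median 0.14) and 11 of 16 fatty acid oxidation genes (median 0.044) higher in the homozygous array. None of these genes passed in limma over both series. In the E17R2 arrays 23 of 24 proximal tubule genes were lower (median -0.59), and their summed intensity was 6252 to 7528 in wild-type and 3167 to 5524 in homozygous kidneys. In the R2E17 pair 21 of 24 were higher in the homozygous array (median 0.66), with sums of 29306 in wild-type and 44541 in homozygous. In homozygous replicate 4 the proximal tubule list lay 0.87 below its set mean (-0.87, centred log2), while the subunit genes were 0.059 above theirs, the highest of the 6 arrays. As an alternative added after the data were seen, the E17R2 arrays were compared without homozygous replicate 4, and 56 of 65 subunit genes were then lower in the homozygous mean (median -0.055).

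Among 20 regulators of mitochondrial gene expression, 0 passed in the genotype comparison (limma, 0% of all genes). An unadjusted p under 0.05 was found for 3 of the 20, against 4.81% of all genes. Esrrg, an orphan nuclear receptor that drives oxidative metabolism genes, read 8.08, 8.17 and 7.91 in the E17R2 wild-type and 7.59, 7.77 and 7.14 in the homozygous arrays, without overlap, and 10.11 and 9.68 in the R2E17 pair. Fitted over both series it differed by -0.52 ± 0.15 (SE, limma unadjusted p = 0.00558, adjusted p = 0.943). Its coactivator gene Ppargc1a read 8.34, 8.70 and 8.29 in wild-type and 8.06, 8.14 and 7.49 in homozygous E17R2 arrays, and 10.03 and 10.02 in the R2E17 pair. Homozygous replicate 4 was again the lowest array, and the difference was -0.41 ± 0.17 (SE, limma adjusted p = 0.943). On that array the proximal tubule list lay at -0.87 from its set mean (centred log2). The list of thick ascending limb and distal tubule lay at -0.67 and the kidney identity list at -0.635. The part of these lists in the regulator values was not tested. Nrf1 and Gabpa, whose proteins bind many subunit promoters, differed by -0.14 ± 0.082 and -0.064 ± 0.095 (SE).

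The widest spread between arrays of 1 group was found among the isoform genes. Cox6a2, the heart and muscle form of subunit 6a, read 5.34, 5.26 and 7.46 in the E17R2 wild-type and 6.05, 5.72 and 5.99 in the homozygous arrays, 6.11 and 7.81 in the R2E17 pair and 6.07, 5.94 and 7.66 on the NB-titled arrays. Its general counterpart Cox6a1 read 13.04, 13.05 and 13.07 and 13.01, 13.03 and 13.10 in the same E17R2 groups, 13.95 and 13.97 in the R2E17 pair and 13.93, 13.95 and 13.94 on the NB-titled arrays. Cox6a2 was thus high on 3 arrays, wild-type replicate 4, homozygous replicate 1 and NB-titled replicate 5, while Cox6a1 was even within each set. Cox8b, the heart and muscle form of subunit 8, read 3.50, 3.02 and 5.10 in wild-type and 3.85, 3.43 and 4.18 in homozygous E17R2 kidneys, 4.26 and 5.40 in the R2E17 pair and 4.33, 4.19 and 5.91 on the NB-titled arrays. The general form Cox8a read 10.87, 10.91 and 11.01 and 10.75, 10.79 and 11.01 in the E17R2 groups, 11.83 and 12.15 in the R2E17 pair and 12.09, 12.03 and 11.98 on the NB-titled arrays. The same 3 arrays were the high ones for Cox8b, and Cox8a did not set them apart.

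Striated muscle genes moved with both isoforms. The median of 23 such genes lay 1.62, 1.98 and 1.69 above the set mean (centred log2) on wild-type replicate 4, homozygous replicate 1 and NB-titled replicate 5, and between -1.42 and 0.28 on the other 8 arrays. Mylpf, a fast muscle myosin light chain gene, read 6.85, 6.73 and 10.14 in the E17R2 wild-type and 8.35, 5.77 and 7.66 in the homozygous arrays, 6.63 and 11.23 in the R2E17 pair and 6.26, 6.11 and 11.23 on the NB-titled arrays. The 23 genes summed to intensities of 991 to 9830 in wild-type and 584 to 11219 in homozygous E17R2 arrays, 1012 and 14703 in the R2E17 wild-type and homozygous arrays, and 805 to 16137 on the NB-titled arrays. The sum was also high on homozygous replicate 4 (11219), where Cox6a2 read 5.99 and Cox8b 4.18. On that array the striated muscle median lay only 0.28 above the set mean, and that of a smooth muscle list 2.73 above. Des is in both lists, and its part in the sum was not tested. The part of the striated muscle genes in the Cox6a2 and Cox8b values was not tested either. The fitted genotype differences were 0.35 ± 0.57 (SE) for Cox6a2 and 0.24 ± 0.51 (SE) for Cox8b, with 95% intervals of -0.93 to 1.63 and -0.91 to 1.39. Without wild-type replicate 1 the Cox6a2 value was -0.10, and without wild-type replicate 4 it was 0.94. For Cox8b the same fits gave -0.056 and 0.73.

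Ndufa4l2, a relative of Ndufa4 known as a hypoxia target, read 7.12, 7.35 and 7.23 in the E17R2 wild-type and 6.84, 6.99 and 9.12 in the homozygous arrays, 7.96 and 8.61 in the R2E17 pair and 8.30, 8.03 and 8.54 on the NB-titled arrays. Homozygous replicate 4 stood far above the other 5 arrays of its set. Ndufa4 read 11.82, 11.91 and 11.82 and 11.76, 11.85 and 12.19 in the same wild-type and homozygous arrays, 12.75 and 12.97 in the R2E17 pair and 12.87, 12.87 and 12.86 on the NB-titled arrays, with the same homozygous array again the highest of its set. On homozygous replicate 4 the median of 10 smooth muscle genes lay 2.73 above the set mean and the median of 14 hypoxia targets 0.58, against -0.87 to -0.45 and -0.27 to -0.002 on the other 5 arrays of the set. Neither list's part in the Ndufa4l2 value was tested, and Ndufa4l2 is itself often listed among hypoxia targets. The fitted difference of Ndufa4l2 was 0.47 ± 0.43 (SE) with all arrays and -0.037 without homozygous replicate 4.

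Of the remaining pairs, Cox6b2, the testis form of subunit 6b, read 7.86, 8.19 and 8.03 in the E17R2 wild-type and 7.92, 8.03 and 8.22 in the homozygous arrays, 8.97 and 9.20 in the R2E17 pair and 9.16, 9.29 and 9.20 on the NB-titled arrays. The general form Cox6b1 read 12.08, 12.10 and 12.08 in wild-type, 11.94, 12.02 and 12.05 in homozygous E17R2 arrays, 13.21 and 13.23 in the R2E17 pair and 13.19, 13.20 and 13.20 on the NB-titled arrays. Its 3 homozygous E17R2 values lay just below the 3 wild-type values. Cox4i1, the general partner of Cox4i2, read 12.04, 12.13 and 12.18 and 12.04, 12.06 and 12.11 in the E17R2 groups, 12.99 and 13.07 in the R2E17 pair and 13.07, 13.12 and 13.07 on the NB-titled arrays. Cox7a2, the general form of subunit 7a, read 12.28, 12.27 and 12.26 and 12.23, 12.22 and 12.33 in the E17R2 groups, 13.17 and 13.21 in the R2E17 pair and 13.21, 13.21 and 13.21 on the NB-titled arrays. Both were nearly level inside each set. Cox7a1, its muscle form, read 4.88, 5.39 and 5.08 and 5.02, 5.20 and 4.81 in the E17R2 groups, 6.74 and 7.86 in the R2E17 pair and 7.23, 7.32 and 7.29 on the NB-titled arrays. Unlike Cox6a2 and Cox8b, Cox7a1 was not high on wild-type replicate 4 or NB-titled replicate 5 within their sets. It was, like them, the highest or among the highest of its set on homozygous replicate 1 (7.86). Its groups overlapped in the E17R2 arrays.

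**Figure D2:**
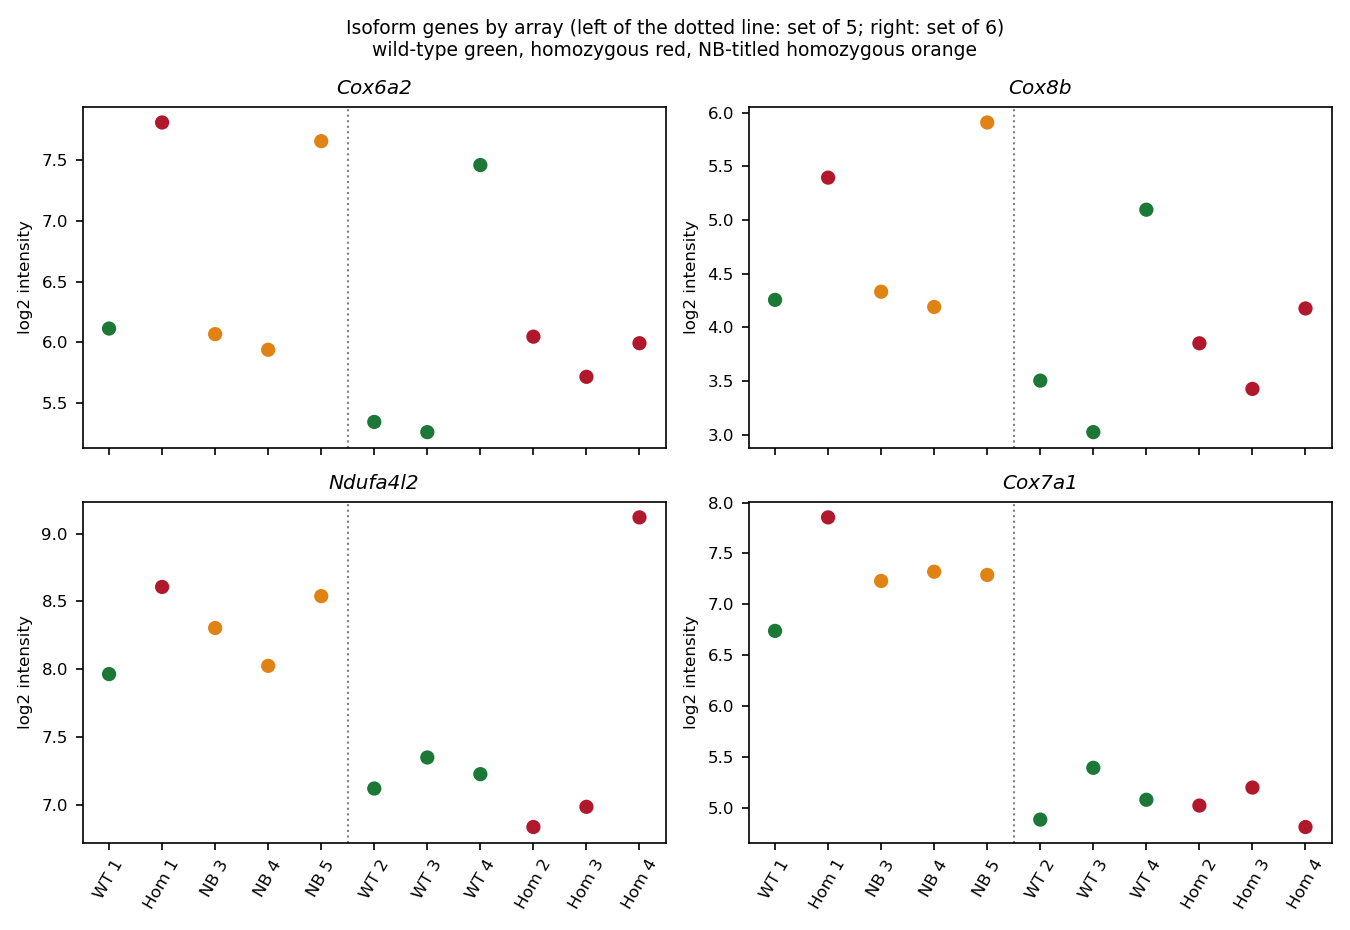
Log2 intensity (vertical axis) of Cox6a2, Cox8b, Ndufa4l2 and Cox7a1 on each of the 11 arrays, with the set of 5 to the left and the set of 6 to the right of the dotted line. Cox6a2 and Cox8b are high on homozygous replicate 1, NB-titled replicate 5 and wild-type replicate 4, Ndufa4l2 is highest on homozygous replicate 4 (9.12), and Cox7a1 separates the sets (6.74 to 7.86 against 4.81 to 5.39, levels that include the difference in scale).

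The 250 bases upstream of the annotated start were read for 52 of the 65 genes from RefSeq's GRCm38.p6 annotation (54 windows) to set general subunits beside restricted isoforms. Those of 3 genes are shown: Cox6a1, Cox7a1 (the muscle form that separated the sets) and Cox8b (a muscle form that followed single arrays). Cox6a1 is the general partner of Cox6a2, which had no window here, and not of the muscle forms shown. Each runs 5′ to 3′ toward the start site, and capitals mark matches on either strand to the searched letters GCATGCG (the core of the NRF1 motif), CCGGAAG (ETS factors), AAGGTCA (ERR) or CAGCTG (an E-box).
Cox6a1, chr5:115348959-115349208, minus strand: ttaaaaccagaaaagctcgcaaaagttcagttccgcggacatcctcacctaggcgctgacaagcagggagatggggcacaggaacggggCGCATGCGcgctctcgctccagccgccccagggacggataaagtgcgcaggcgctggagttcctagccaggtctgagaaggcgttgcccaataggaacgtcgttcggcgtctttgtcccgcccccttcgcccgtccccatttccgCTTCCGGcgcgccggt
Cox7a1, chr7:30183921-30184170, plus strand: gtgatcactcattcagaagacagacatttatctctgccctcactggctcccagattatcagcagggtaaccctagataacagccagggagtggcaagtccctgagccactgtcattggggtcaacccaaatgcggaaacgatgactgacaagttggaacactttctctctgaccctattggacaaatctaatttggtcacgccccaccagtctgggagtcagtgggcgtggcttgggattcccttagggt
Cox8b, chr7:140900447-140900696, minus strand: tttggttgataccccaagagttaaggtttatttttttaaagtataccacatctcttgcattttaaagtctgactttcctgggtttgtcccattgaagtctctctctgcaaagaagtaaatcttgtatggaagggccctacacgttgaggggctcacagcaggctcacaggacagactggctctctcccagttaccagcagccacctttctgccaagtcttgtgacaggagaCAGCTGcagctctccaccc
The Cox6a1 window held 26 CpG sites, overlapping NRF1 core matches on both strands and an ETS match on the reverse strand, the Cox7a1 window held 4 CpG sites and no match, and the Cox8b window held 1 CpG site and an E-box. Over the 50 windows of members other than the restricted isoforms the median was 14 CpG sites (4 to 28), over the 4 windows of restricted isoforms (Cox6b2, Cox7a1, Cox7b2 and Cox8b) it was 6, and over all 32851 windows of the annotation it was 6. The ETS letters stood in 8 of the 54 member windows (14.8%, against 6.91% of all windows), in the genes Cox6a1, Cox6b1, Ndufb6, Ndufb7, Ndufs3, Sdhd, Uqcr11 and Uqcrh. The NRF1 core stood in 4 (7.41%, against 3.02%), in Cox6a1, Ndufa6, Ndufa8 and Sdhb, the ERR letters in 3 (5.56%, against 4.08%) and the E-box in 5 (9.26%, against 13%). Cox6a1 was the only member with both an NRF1 core and an ETS match, so its window does not stand for the general subunits. The windows of Cox7a2 and Cox8a, the general partners of Cox7a1 and Cox8b, held no match. A match is a run of letters in this window and says nothing about binding.

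The contrast of the set of 5 with the set of 6 compared each subunit gene with the median gene of its array, with genotype fitted. Set, title series and normalization cannot be told apart in it, and the 3 NB-titled arrays lie in 1 set. Of the 65 genes, 34 passed in limma at an adjusted p of 0.05 (52.3%), against 59.9% of all genes. They divided into 10 higher in the set of 5 (18.3% of all genes were called higher) and 24 lower (41.6%). The member median was -0.11 on the centred log2 scale and that of all genes -0.17. The values of the 2 sets did not overlap for 28 of 65 members, against 42.6% of all genes. On this scale the share of members called was no higher than the background in either direction.

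Scaling set the split between higher and lower. After quantile normalization over all 11 arrays 33 members passed, 23 higher and 10 lower (median 0.025). The shares of all genes were 50.3% called, 24.2% higher and 26.1% lower. With the cytosolic ribosome genes as reference 49 members passed, 48 higher and 1 lower (median 0.32), against 63.8% of all genes called, 49.1% higher and 14.7% lower (median 0.26). The shift also depended on signal: over all genes the median was -0.72 in the dimmest 10% and -0.11 in the brightest 10%, where 52 members lay with a median of -0.071. Under all 3 scalings 11 members passed in 1 direction: 10 were higher (Ndufb7, Ndufb8, Ndufb10, Ndufs1, Ndufs7, Ndufv1, Sdha, Sdhc, Uqcr10 and Cox7a1) and Cox4i2 was lower, where 17.8% of all genes were higher and 10.3% lower under all 3. With the mean of all probe sets of a gene, Sdha passed in the other direction, and Ndufs7 and Uqcr10 did not pass. That setting called 27 members, 13 higher and 14 lower, against 59.6%, 20.5% and 39.1% of all genes. Of the 10, all but Cox7a1 were read by a probe set with a suffix, as were 33 of the 65. The suffix was x for Ndufv1 and s for Sdha. For Ndufb7, Ndufb8, Ndufb10, Ndufs1, Ndufs7, Sdhc and Uqcr10 it was a, meant for transcripts of the same gene. Without probe sets of suffix a, s or x, 21 of 52 testable members passed, 2 higher and 19 lower. The shares of all genes were 59.8%, 17.8% and 42.0%. A further probe set was present for 7 of the 10 genes called higher, and the next brightest had the same sign in 4.

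In complex I, 6 of 36 members were higher and 12 lower. Ndufs1 read 3.79, 4.02, 3.94, 3.99 and 3.90 above the median gene in the set of 5 (the R2E17 wild-type array, the R2E17 homozygous array, then NB-titled replicates 3 to 5). In the set of 6 it read 3.50, 3.43, 3.67, 3.31, 3.34 and 3.31, in the order wild-type then homozygous replicates 2 to 4. The sets did not overlap, and the difference was 0.53 ± 0.080 (SE) with a limma adjusted p of 2.21e-04. The flavin-binding subunit gene Ndufv1, where NADH is oxidised, differed by 0.34 ± 0.051 (SE, limma adjusted p = 2.25e-04), and its other probe sets gave 0.25 and 0.19. Ndufb1, a small accessory subunit, went the other way, with -0.59, -0.22, -0.27, -0.26 and -0.31 relative to the median gene in the set of 5 and 0.13, 0.18, 0.079, 0.12, 0.10 and 0.13 in the set of 6. Wild-type replicate 1 was the lowest array, and the difference was -0.48 ± 0.067 (SE, limma adjusted p = 1.28e-04). Ndufb6 read 3.97, 4.16, 4.15, 4.06 and 3.98 in the set of 5 and 4.40, 4.49, 4.35, 4.47, 4.51 and 4.71 in the set of 6 on the same scale. Here too the sets did not overlap, and the difference was -0.47 ± 0.067 (SE, limma adjusted p = 1.51e-04). Relative to the ribosome genes the Ndufb1 and Ndufb6 values were -0.056 and -0.040, neither of which passed.

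In complex II, Sdhc and Sdha were higher and Sdhd lower. Sdhc read 3.34, 3.39, 3.21, 3.04 and 3.12 above the median gene in the set of 5 and 2.74, 2.73, 2.34, 2.70, 2.68 and 2.74 in the set of 6, without overlap. Its difference was 0.56 ± 0.10 (SE, limma adjusted p = 6.75e-04), but its second probe set gave 0.059. Sdha read 4.41, 4.55, 4.58, 4.41 and 4.41 in the set of 5 and 4.17, 4.14, 4.32, 4.15, 4.12 and 3.91 in the set of 6, a difference of 0.36 ± 0.077 (SE, limma adjusted p = 0.00217). The next brightest probe set of Sdha, without a suffix, gave -0.077. The mean of all Sdha probe sets passed in the other direction (-0.18, limma adjusted p = 0.0244). That mean includes dim probe sets, with mean log2 intensities of 4.22 and 2.78, which gave -1.21 and -0.26. Sdhd read 3.59, 4.01, 3.96, 3.91 and 3.81 in the set of 5 and 4.15, 4.22, 4.16, 4.07, 4.11 and 4.12 in the set of 6, a difference of -0.30 ± 0.078 (SE, limma adjusted p = 0.00672). Sdhb did not pass, at 0.11 ± 0.073 (SE, limma adjusted p = 0.207).

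In complex III, 1 of 8 genes was higher and 2 were lower. Uqcr10, a small subunit at the iron-sulfur protein, read 4.41, 4.77, 4.61, 4.61 and 4.59 above the median gene in the set of 5 and 4.27, 4.22, 4.25, 4.09, 4.11 and 4.40 in the set of 6. The sets touched without overlap between the R2E17 wild-type array and homozygous replicate 4, and the difference was 0.36 ± 0.082 (SE, limma adjusted p = 0.00319). Uqcrh, the hinge protein that helps cytochrome c dock, read 5.19, 5.28, 5.21, 5.25 and 5.25 in the set of 5 and 5.47, 5.50, 5.43, 5.48, 5.50 and 5.61 in the set of 6, a difference of -0.28 ± 0.050 (SE, limma adjusted p = 7.01e-04). Uqcrb, a subunit at the ubiquinone site, read 6.26, 6.17, 6.23, 6.202 and 6.14 and 6.54, 6.41, 6.44, 6.51, 6.37 and 6.54, a difference of -0.26 ± 0.057 (SE, limma adjusted p = 0.00234). After quantile normalization Uqcrb turned to 0.15 and still passed. With the ribosome genes as reference Uqcrb (0.16) and Uqcrh (0.15) both passed as higher, so their direction rests on the scaling. The core genes Uqcrc1 and Uqcrc2 and the Rieske gene Uqcrfs1 did not pass.

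Complex IV had 1 gene higher and 9 lower of 17, and 16 of the 17 differences were below 0 (64.5% of all genes). After quantile normalization 5 were higher and 5 lower, and with the ribosome genes as reference 9 were higher and 1 lower. Cox7a1, the gene called higher on the centred scale, had the largest difference of all members. It read -0.67, 0.33, -0.26, -0.17 and -0.22 relative to the median gene in the set of 5 and -1.40, -0.95, -1.22, -1.26, -1.10 and -1.43 in the set of 6. All 5 arrays of the first set lay above all 6 of the second, and the difference was 0.99 ± 0.16 (SE, limma adjusted p = 3.50e-04, 0.88 to 1.19 in the 11 fits that each left out 1 array). The R2E17 arrays alone gave 1.06 ± 0.24 (SE) against the E17R2 arrays (limma adjusted p = 0.00895), and the NB-titled arrays gave 1.05 ± 0.10 (SE) against the homozygous E17R2 arrays (limma adjusted p = 7.69e-04). Cox7a1 is also known from brown fat, and there Ucp1, the defining brown fat gene, read 3.67, 3.49, 3.54, 3.54 and 3.58 in the set of 5 and 2.50, 2.42, 2.73, 2.73, 2.59 and 2.65 in the set of 6, which is near the lowest signals of both sets. On the centred scale the 16 measured genes of a fat list had a median difference between the sets of -0.16. Of these 3 were called higher and 8 lower, against 18.3% and 41.6% of all genes. The 23 striated muscle genes had a median of -0.595, with 0 called higher and 4 lower. Neither list's part in the Cox7a1 value was tested.

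Cox4i2 was the member lower under all 3 scalings. It read -2.24, -2.14, -2.17, -2.28 and -2.27 relative to the median gene in the set of 5 and -1.75, -1.77, -1.51, -1.53, -1.66 and -1.27 in the set of 6, without overlap. The difference was -0.68 ± 0.088 (SE, limma adjusted p = 7.55e-05), and -0.25 relative to the ribosome genes. Cox7b2, a testis isoform near the floor of the signal, read -4.52, -4.75, -4.39, -4.65 and -4.62 in the set of 5 and -3.85, -4.42, -3.93, -3.14, -3.89 and -3.99 in the set of 6, which overlapped. Its difference of -0.79 ± 0.18 (SE, limma adjusted p = 0.00345) was close to the median of the dimmest 10% of genes (-0.72). Cox8c differed by -0.68 ± 0.11 (SE, limma adjusted p = 3.49e-04). The general subunits Cox4i1, Cox6a1, Cox6c, Cox7a2, Cox7a2l and Cox7c were also lower, with differences from -0.22 to -0.52. With the ribosome genes as reference none of these was called lower. For Cox4i1, Cox6a1 and Cox7a2 the direction too rests on the scaling. Cox6a1 passed as higher after quantile normalization (0.17), and Cox4i1 (0.21), Cox6a1 (0.14) and Cox7a2 (0.17) did so with the ribosome genes as reference. In complex I the same reference turned the calls of Ndufa1, Ndufa5, Ndufb9, Ndufc2 and Ndufs4.

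**Figure D3:**
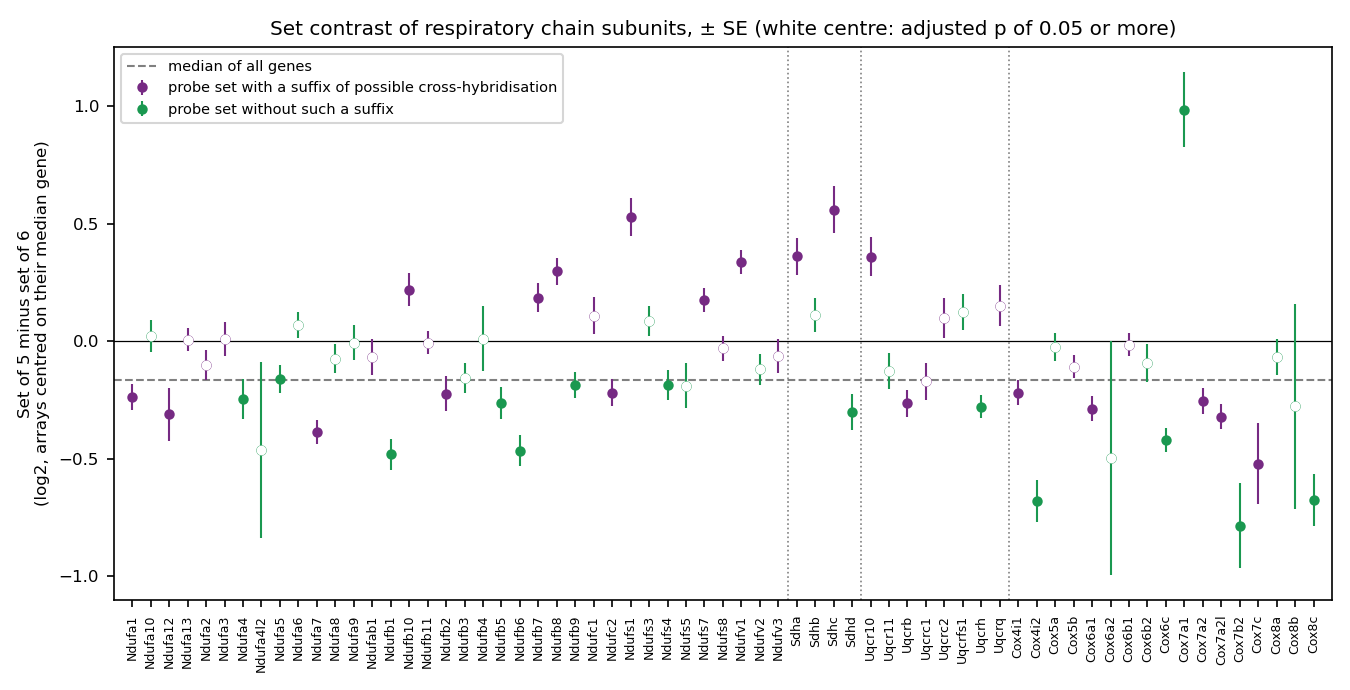
Set of 5 minus set of 6 for each subunit gene (vertical axis, log2, arrays centred on their median gene, ± SE from limma). Purple marks probe sets with a suffix a, s or x (legend: possible cross-hybridisation) and green those without. White centres mark an adjusted p of 0.05 or more. The dashed line is the median of all genes (-0.17), Cox7a1 stands at 0.99, and the other 9 genes called higher are all purple.

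Leaving out each of the 11 arrays in turn kept 24 of the 34 calls in every fit. The other 10 (Ndufa4, Ndufa5, Ndufa12, Ndufb2, Ndufb5, Ndufb7, Ndufb9, Ndufb10, Ndufs4 and Cox7c) lost the call in at least 1 fit. Wild-type replicate 1 decided the most: without it 7 of the 34 calls were lost and 4 genes were gained (Ndufs3, Sdhb, Uqcrc2 and Uqcrfs1). With only the R2E17 arrays against the E17R2 arrays 17 members passed in limma (42.1% of all genes), 6 higher (12.0%) and 11 lower (30.1%). With only the NB-titled against the homozygous E17R2 arrays 25 passed (49.3%), 9 higher (13.4%) and 16 lower (35.9%).

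Other gene groups had median differences of either sign on the same scale. Of all genes, 18.3% were called higher and 41.6% lower, with a median of -0.17. The ATP synthase genes had a median of -0.16 (1 of 16 higher and 8 lower), the mitochondrial ribosome -0.16 (3 of 66 higher and 30 lower) and the cytosolic ribosome -0.44 (1 of 42 higher and 39 lower). Of the citric acid cycle genes 10 of 16 were higher (median 0.27), of the fatty acid oxidation genes 12 of 16 (median 0.42) and of the proximal tubule genes 22 of 24 (median 1.59). Among the 20 regulators 8 were higher and 2 lower, among them Esrrg (0.89 ± 0.12, SE), Ppargc1a (0.77 ± 0.13) and Esrra (0.75 ± 0.068), with limma adjusted p values from 8.05e-06 to 5.46e-04. The summed intensity of the proximal tubule genes ran from 29306 to 44541 on the R2E17 and NB-titled arrays and from 3167 to 7528 on the E17R2 arrays, and its part in the subunit values was not tested.

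Within the sets the 4 complexes moved over a narrow range. The median deviation of all 65 genes from the set mean ran from -0.058 (wild-type replicate 1) to 0.072 (homozygous replicate 1) over the 5 arrays of the first set, and from -0.045 (homozygous replicate 2) to 0.059 (homozygous replicate 4) over the 6 of the second. Complexes II and III reached the widest values, -0.13 on wild-type replicate 1 and 0.12 for complex II on homozygous replicate 1. Complex IV stayed between -0.041 and 0.075.

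**Figure D4:**
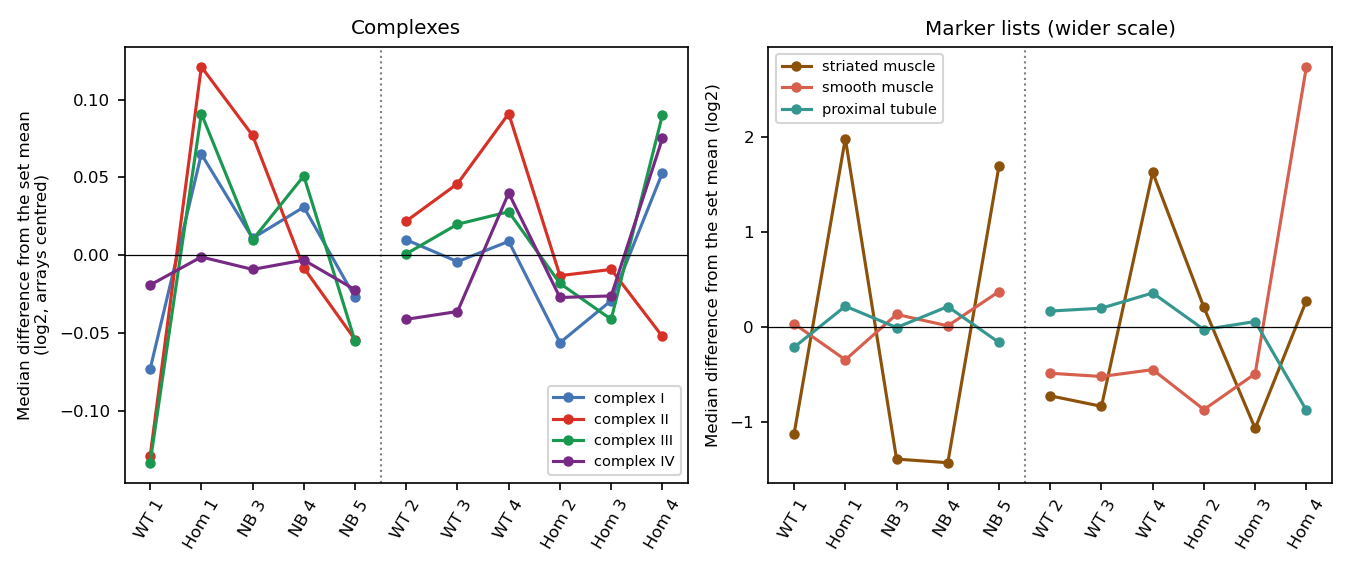
Median difference of the genes of each complex from the mean of their set on each array (left, vertical axis in log2, arrays centred on their median gene), and the same for striated muscle, smooth muscle and proximal tubule genes on a wider scale (right), with the set of 5 to the left of the dotted lines. The complexes stay between -0.13 and 0.12, while the striated muscle list reaches 1.98 and the smooth muscle list 2.73 on single arrays.

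The NB-titled arrays were compared with the homozygous level that limma fitted for the R2E17 series, inside the set of 5. Their homozygous genotype is taken from the label, since Robo2 itself read near the wild-type array on 2 of the 3. No member passed: 0 of 65 had an adjusted p under 0.05 (0% of all 18193 genes), and 1 had an unadjusted p under 0.05 (1.60% of all genes). The median difference was -0.004 over members and -0.022 over all genes, on the centred log2 scale. Ndufs5 was the 1 gene, with 9.98, 10.20 and 10.10 on the NB-titled arrays against 9.84 and 9.76 on the R2E17 wild-type and homozygous arrays. Fitted against that level it differed by 0.31 ± 0.12 (SE, limma unadjusted p = 0.0268, adjusted p = 1.0). The member median was -0.057 without wild-type replicate 1 and 0.086 without homozygous replicate 1, since the reference rests on these arrays. Ndufa12, an accessory subunit of complex I, fell into 2 levels within the set of 5, with 12.12, 12.63 and 12.65 on the NB-titled arrays and 12.63 and 12.23 on the R2E17 wild-type and homozygous arrays. Homozygous replicate 1 and NB-titled replicate 3 were the low arrays, and the set of 6 read 11.56 to 11.64.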

How the data were processed

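The authors deposited linear RMA intensity values for 45101 probe sets on 11 arrays, per the submitters' processing notes, with RMA's version not stated. These were converted to log2 without pseudocount or filter. Of the probe sets, 64 were controls, 34945 had a single symbol in the platform annotation (34741 of them found in RefSeq's gene table), 932 had several and 9160 were unnamed here. Each of 18193 genes was represented by its brightest probe set on average. The limma package (3.58.1, R 4.3.3) gave 2-sided tests from lmFit and eBayes, adjusted by Benjamini-Hochberg across all genes, at a threshold of 0.05. The fits were checked on simulated data. Groups and the set entered the genotype model together, while the set contrast used genotype and set on arrays centred on their median gene. Promoters and counts used Python 3.11.15 with pandas 2.3.3, and the motifs shown were settled on after longer NRF1 and MEF2 motifs had been searched in the same windows.

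The 65 genes and all gene lists were chosen with earlier results of these data known. Values on every array are given for up to 3 called genes per complex and comparison with the largest difference, the 3 smallest p per direction in the genotype comparison, the 4 Sdh genes and the isoform pairs, and from other lists for the 2 or 3 smallest p. Genes outside this rule (Ndufa12, Mylpf, Snap25, Ucp1 and single values given for comparison) were chosen after their values were seen. Alternatives were the choice of probe set, the filter, the scaling, the variance model and the arrays entered. The labels do not say that replicates came from separate animals, so p-values measure only the spread between these samples. The number of arrays limits the precision.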

Additional observations from a re-analysis of the deposited data

Results flagged for a closer look

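For each gene the 4 wild-type and the 4 homozygous arrays (without the NB-titled arrays, centred log2) were searched for a single array whose gap to the nearest other exceeded Dixon's critical share of the range for 4 samples. Of 130 such groups, 18 stood out, and chance gives about 1 in 20. Replicate 1 of each genotype comes from the set of 5 and the other replicates from the set of 6, so such a gap includes the difference between the sets.

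Homozygous replicate 1 stood apart for Ndufa10 (gap 0.867 of the range), Ndufa12 (0.897), Ndufb1 (0.927), Ndufs1 (0.958), Sdhc (0.910) and Uqcrfs1 (0.846). Wild-type replicate 1 stood apart for Ndufa7 (0.868), Ndufb1 (0.872), Ndufb2 (0.855), Ndufs4 (0.940), Ndufs7 (0.848), Ndufv1 (0.858), Sdhd (0.889), Uqcr11 (0.987) and Cox6c (0.853). In the other set, wild-type replicate 4 stood apart for Ndufc1 (0.945) and for Cox6a2 (0.855), with striated muscle genes high on the same array. Homozygous replicate 4, where smooth muscle genes were high, stood apart for Ndufb2 (0.838).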

How the results depend on the processing

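The count of 0 members called in the genotype comparison and in the NB-titled comparison was the same under each alternative run. The genotype median of 0.035 was -0.049 with only the E17R2 arrays and, as an alternative added after the data were seen, -0.013 with these centred on their median gene. Over fits that each left out 1 array, with all arrays or with only the E17R2 arrays (the latter also added after the data were seen), it ran from -0.062 to 0.053. With only the E17R2 arrays it was -0.034, -0.052 and -0.055 without homozygous replicates 2, 3 and 4, and -0.062, -0.037 and -0.040 without wild-type replicates 2, 3 and 4. In the set contrast, 34 members passed in the main setting. Without probe sets of suffix a, s or x it was 21 of 52 (59.8% of all genes, with 13 members not tested). With the mean of all probe sets 27 passed (13 higher and 14 lower), and 17 with only the R2E17 against the E17R2 arrays. The set median of -0.11 was -0.023 with the mean of all probe sets and -0.16 without probe sets of suffix a, s or x. It was 0.025 after quantile normalization, 0.32 relative to the ribosome genes and -0.056 with only the NB-titled against the homozygous E17R2 arrays. Leaving out 1 array gave 30 to 34 calls and medians of -0.14 to -0.064. The NB-titled median of -0.004 ran from -0.057 to 0.086. The causes were not tested. No paired analysis was possible because the labels give replicates no number that wild-type and homozygous arrays share by design. Dim probe sets (Cox7b2, Ndufb4, Cox4i2) limit what their values can show.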
